A study of Mus musculus with 2 samples.

Results

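Mitotic and non-cycling cells of the limb mesenchyme were compared in single-cell transcriptomes of mouse hindlimb buds at E11.5. Cells were chosen on raw UMIs (unique molecular identifiers, each counting 1 captured RNA molecule) in 2 steps. A barcode entered the mesenchymal gate with at least 1000 genes, at least 5000 UMIs, at most 10% mitochondrial UMIs, globins under 2% of UMIs, at least 2 UMIs of the limb mesenchyme gene Prrx1, and no UMI of Epcam (ectoderm), Cdh5 (endothelium), Lbx1 (migrating muscle precursors) or Csf1r (macrophages). A gated cell was then called mitotic when Top2a, Mki67, Cenpf, Ube2c, Ccnb1 and Plk1 together made up at least 10 of every 10000 UMIs. It was called non-cycling when those 6 genes plus the replication genes Mcm5, Mcm6, Pcna and Rrm2 together made up at most 2 of every 10000. The rule found 8946 cells among 15559 gated cells and 29393 barcodes in all. Of these, 6277 mitotic and 190 non-cycling cells came from dual-enSERT-1, and 2479 mitotic cells and 0 non-cycling cells came from dual-enSERT-2.

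Each of the 2 libraries came from FVB mouse hindlimbs in which 2 copies of the ZRS, the limb enhancer of Shh, drove separate reporters. In both, the reference ZRS was joined to mCherry and the 404G>A allele to eGFP. The genotype of dual-enSERT-1 is written H11 ZRS-mCherry/ZRS404G>A-eGFP. That of dual-enSERT-2 names the same reporters at H11 with an added B before the mCherry part and after the eGFP part and an SI between them, which the labels do not explain. No library lacks the reporters. With 1 library per genotype, construct, embryo, preparation and sequencing cannot be told apart, and a comparison that uses cells of 1 library has no replicate check and no test. Intervals on levels, ratios and shares are exact 95% intervals of the counts, and they cover counting error only.

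In a dividing cell the replication machinery (the MCM helicase, the PCNA clamp, ribonucleotide reductase) is made around the G1/S transition, and the mitotic genes are made later, through G2 and M phase. Top2a and Mki67 RNA is already present in S phase, so a cell called mitotic here may be in S phase or G2. The mitotic share is no count of cells in M phase. Likewise the non-cycling call rests only on little RNA of the 10 genes, and whether such cells had left the cycle was not tested. Limb bud mesenchyme grows outward under fibroblast growth factors from the apical ectodermal ridge, while cells in the core leave the undifferentiated state and condense into cartilage under Sox9. Hoxa13 and Hoxd13 mark the distal domain that makes the autopod, and Meis1 and Meis2 mark the proximal domain.

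The promoters of genes switched on late in the cycle are known for CCAAT boxes, bound by NF-Y, and for the cell cycle genes homology region, whose core is TTTGAA, while replication genes are known for E2F sites such as TTTCGCGC. The rule genes define both cell states, so their promoters are shown where the RefSeq start lay within 40 bases of an annotated GENCODE transcript start. Each line gives the 120 bases before the RefSeq start, 5′ to 3′ on the strand of the gene, in GRCm38.p6, with capitals marking these 3 motifs on either strand.
Top2a, chr11:99024190-99024309, minus strand: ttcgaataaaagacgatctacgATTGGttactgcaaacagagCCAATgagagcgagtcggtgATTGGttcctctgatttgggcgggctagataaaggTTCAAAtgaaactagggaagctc
Cenpf, chr1:189688087-189688206, minus strand: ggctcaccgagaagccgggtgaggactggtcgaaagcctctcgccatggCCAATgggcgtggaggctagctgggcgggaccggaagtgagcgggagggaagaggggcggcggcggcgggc
Ube2c, chr2:164769809-164769928, plus strand: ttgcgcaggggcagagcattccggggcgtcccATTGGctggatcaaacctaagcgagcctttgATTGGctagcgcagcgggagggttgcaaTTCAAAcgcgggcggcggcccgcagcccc
Plk1, chr7:122159315-122159434, plus strand: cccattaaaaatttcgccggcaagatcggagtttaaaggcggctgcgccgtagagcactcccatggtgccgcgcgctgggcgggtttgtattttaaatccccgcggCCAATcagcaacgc
Mcm6, chr1:128359706-128359825, minus strand: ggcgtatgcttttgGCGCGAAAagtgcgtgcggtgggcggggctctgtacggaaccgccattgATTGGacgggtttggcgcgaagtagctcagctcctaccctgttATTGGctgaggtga
Within these 120 bases Top2a held 3 CCAAT boxes and 1 TTTGAA, Ube2c held 2 and 1, Cenpf and Plk1 held 1 CCAAT box each, and the replication gene Mcm6 held 2 CCAAT boxes and 1 TTTCGCGC. Over the full 250 bases before the start, CCAAT was present in 6 of 6 mitotic and 4 of 4 replication genes of the rule, against 34.5% of all 27025 RefSeq promoters. TTTGAA was present in 3 of 6 mitotic and 0 of 4 replication genes, against 16.3% of all promoters. TTTCGCGC was present in 0 of 6 mitotic genes and in 2 of 4 replication genes, Mcm5 and Mcm6, against 0.255% of all promoters. Genes of the other cell cycle lists with an entry were 15 mitotic regulators, 18 spindle and centromere genes, 10 chromosome genes and 20 replication genes. CCAAT was present in 12, 12, 7 and 12 of them, and TTTGAA in 4, 5, 5 and 3. TTTCGCGC was present in 1, 0, 0 and 0, so none of the 20 replication genes outside the rule held it. Only this form of E2F site was searched, so other forms may be present in them. No match of 1 motif overlaps a match of another in the printed lines. A match is a description of letters and not of a bound site.

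dual-enSERT-1 held 20508 barcodes with 298653282 UMIs, of which 11981 cells passed the gate, and dual-enSERT-2 held 8885 barcodes with 184301053 UMIs, of which 3578 cells passed. The gate itself asks for Prrx1, so the label was checked on limb mesenchyme genes that it did not use. Twist1 averaged 3.46 and 2.80 UMIs per 10000 in the gated cells of dual-enSERT-1 and dual-enSERT-2, against 0.0927 and 0.0337 in red blood cell barcodes, taken as those with over 50% globin UMIs. The hindlimb gene Pitx1 averaged 3.54 and 3.35 in gated cells, against 0.0867 and 0.0503 in red blood cell barcodes. The libraries shared 49 barcodes, 10 of them in the gate. Scrublet, a doublet caller, marked 1108 gated cells (9.25%) of dual-enSERT-1 and 19 (0.531%) of those in dual-enSERT-2, and these cells were kept.

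Mitotic cells made up 52.4% of gated cells in dual-enSERT-1 (interval 51.5% to 53.3%) and 69.3% in dual-enSERT-2 (67.7% to 70.8%). Non-cycling cells made up 1.59% (1.37% to 1.83%) in dual-enSERT-1, and the 0 of 3578 cells in dual-enSERT-2 allows a share of up to 0.0838% by the limit of 3 counts (exact upper bound 0.103%). The states also differed in depth. In dual-enSERT-1 the median was 18092 UMIs in mitotic cells, 12701.5 in all other gated cells and 8971 in non-cycling cells, and in dual-enSERT-2 it was 29043 in mitotic and 22363 in other gated cells. At 8971 UMIs, a cell with 2 UMIs of the 10 genes already passes the limit of 2 per 10000. When every cell was thinned to 5000 UMIs before the states were called, mitotic cells were 55.0% and 72.8% of gated cells and non-cycling cells were 567 (4.73%) in dual-enSERT-1, with 5 (0.140%) in dual-enSERT-2. Mitochondrial UMIs were 1.47% of the total in mitotic, 1.66% in other gated and 2.10% in non-cycling cells of dual-enSERT-1, and Scrublet marked 12.9%, 5.26% and 0% of these cells. The part of depth, mitochondrial share and doublets in the comparisons was not tested beyond the alternatives given with the processing.

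**Figure D1:**
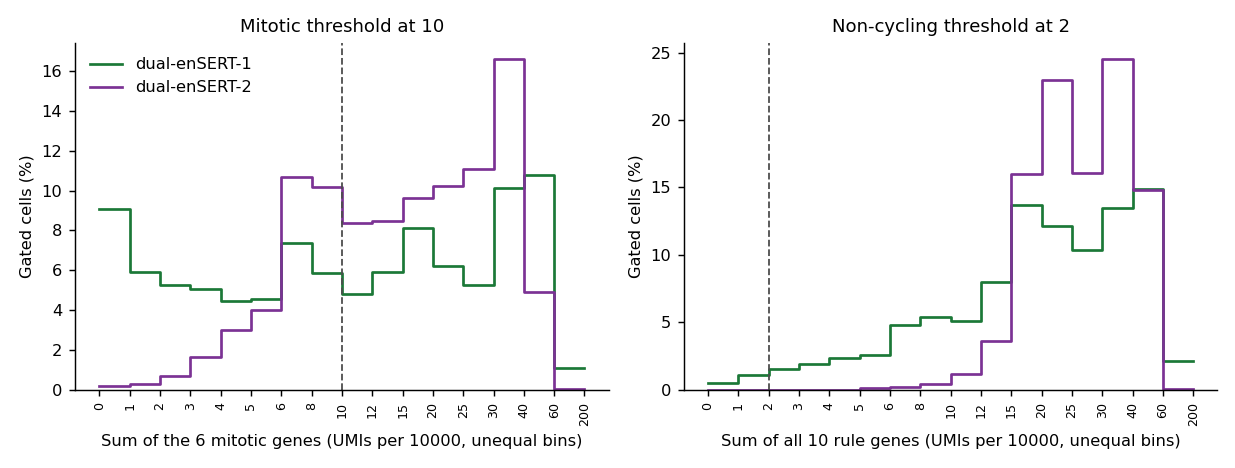
Share of gated cells of each library (percent) by the sum of the 6 mitotic genes (left) and of all 10 rule genes (right), in UMIs per 10000 with unequal bins and the limits of 10 and 2 as dashed lines. Cells fill the bins on both sides of the mitotic limit in both libraries, and dual-enSERT-2 has no cell at or under the non-cycling limit.

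The mitotic limit cuts a continuous range. In dual-enSERT-1, 291 cells lay at 10 to 11 mitotic UMIs per 10000, just inside, and 361 at 9 to 10, just outside, and in dual-enSERT-2 the counts were 171 and 181. At the non-cycling limit in dual-enSERT-1, 129 cells lay at 1 to 2 UMIs of the 10 genes per 10000 and 185 cells lay at 2 to 3, while dual-enSERT-2 had none in either range. The median mitotic sum was 25.9 per 10000 in mitotic cells of dual-enSERT-1, 3.71 in other gated cells and 0 in non-cycling cells, and it was 24.0 in mitotic and 6.97 in other gated cells of dual-enSERT-2. Because dual-enSERT-2 had no non-cycling cell, 2 further references were used in both libraries, and both were chosen after the cell counts were seen. They were all gated cells that were not mitotic (other gated cells), and the lowest 10%, which are the gated cells of a library with the smallest sum of the 10 genes. In the lowest 10% this sum had a median of 3.98 per 10000 in dual-enSERT-1, against 14.7 for dual-enSERT-2, so the lowest 10% of dual-enSERT-2 lay well above the non-cycling limit. Red blood cell barcodes, whose precursors can themselves divide, averaged 10.2 per 10000 for the same 10 genes in dual-enSERT-1, with 16.1 for dual-enSERT-2, and the part of free RNA in these sums was not tested. A further state, replicating cells, held gated cells whose 4 replication genes of the rule made up at least 5 and whose 6 mitotic genes made up at most 2 of every 10000 UMIs, and dual-enSERT-1 had 888 of them (7.41%) and dual-enSERT-2 had 15 (0.419%).

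The genes of the rule set the scale of the contrast and are described without a test. Levels are given as CPM, the UMIs of a gene per 1000000 UMIs summed over the cells of a state. Top2a, the topoisomerase that untangles replicated chromosomes, stood at 1148 CPM in mitotic, 37.4 in replicating, 28.3 in lowest-10% and 7.89 in non-cycling cells of dual-enSERT-1, and at 893 CPM in mitotic and 190 in lowest-10% cells of dual-enSERT-2. The mitotic level was 146 times the non-cycling level (interval 86.8 to 266). Cenpf, a kinetochore protein, stood at 507 CPM in mitotic and 2.25 in non-cycling cells, and Ube2c, the ubiquitin-conjugating enzyme of the anaphase-promoting complex, at 685 and 7.32 CPM. Ccnb1, the cyclin that drives entry into mitosis, stood at 176 CPM in mitotic cells and had 0 UMIs in non-cycling cells, so it was at least 104-fold higher against a floor of 3 counts. The replication genes of the rule were spread differently. Pcna stood at 200 CPM in mitotic, 263 in replicating and 19.7 in non-cycling cells, and Mcm6 at 96.5, 229 and 30.4 CPM.

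**Figure D2:**
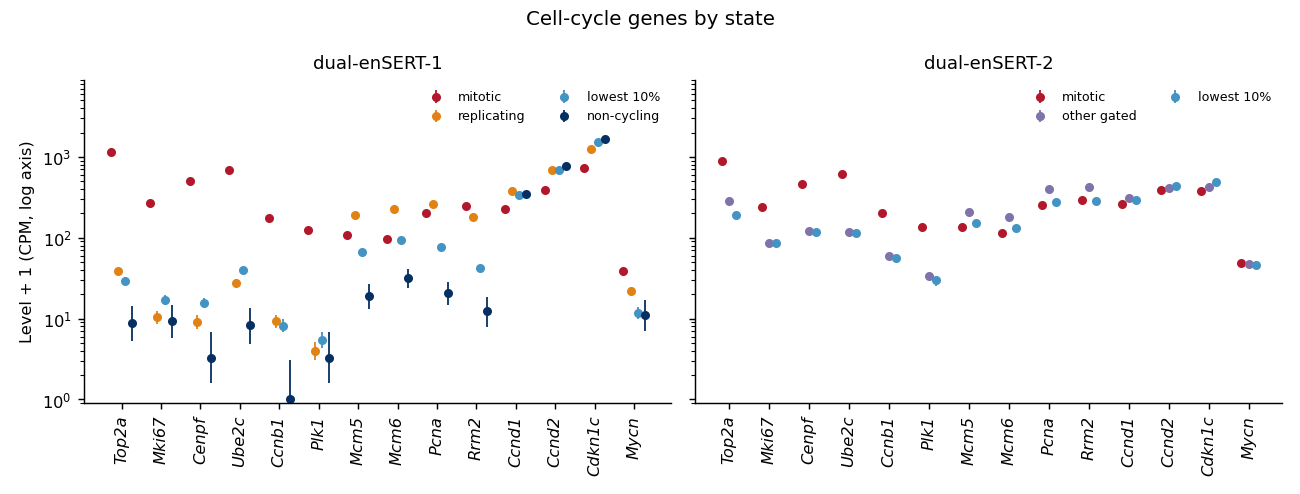
Levels (CPM + 1, log axis) of the 10 rule genes and of Ccnd1, Ccnd2, Cdkn1c and Mycn in the states of dual-enSERT-1 (left) and dual-enSERT-2 (right), with exact 95% counting intervals as bars. The 6 mitotic genes are highest in mitotic cells of both libraries, and Cdkn1c is lowest in them.

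Other genes of the mitotic machinery, none of which the rule used, were also far higher in mitotic cells of dual-enSERT-1. A gene counted as different at 2-fold or more, on log2(CPM + 1), among the 11020 genes averaging at least 5 CPM, and this was met by 5.31% of genes on the higher side and 5.63% on the lower side of mitotic against non-cycling cells. Their RNA comes from the same cells and the same UMIs that set the states, so these counts carry no test. All 19 regulators of mitosis were at least 2-fold higher, with a median log2 difference of 4.04, against -0.05 over all genes. Aurka, a kinase of the centrosome, stood at 115 CPM in mitotic and 1.13 in non-cycling cells. Foxm1, a transcription factor that activates late cell cycle genes, stood at 34.0 CPM in mitotic and 1.13 in non-cycling cells, and Cdk1, the kinase partner of Ccnb1, at 291 and 15.2 CPM. Likewise 21 of 21 spindle and centromere genes were at least 2-fold higher, with a median of 4.36. The spindle motor Kif11 stood at 148 and 1.13 CPM and the midzone protein Prc1 at 220 and 2.82 CPM. Of 12 chromosome structure and cytokinesis genes, 11 were at least 2-fold higher. The exception was the nuclear lamina gene Lmnb1, at 416 CPM in mitotic and 220 in non-cycling cells (log2 difference 0.92).

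Genes that act before mitosis or hold it back were much closer in level. Of 26 replication genes outside the rule, 10 were at least 2-fold higher in mitotic than in non-cycling cells and 0 were lower, with a median log2 difference of 0.82. Mcm4, a subunit of the helicase, was at 106 CPM in mitotic and 122 CPM in non-cycling cells. Of 7 tested G1 cyclins, their kinases and Myc genes, 1 passed 2-fold, Mycn, a growth regulator, at 38.3 CPM in mitotic and 10.1 in non-cycling cells. The G1 cyclins stood on the other side. Ccnd1 was at 229 CPM in mitotic, 374 in replicating and 349 in non-cycling cells, and Ccnd2 at 390, 693 and 762 CPM. Among 13 tested genes of cell cycle exit, the inhibitor Cdkn1c (p57) stood at 736 CPM in mitotic, 1249 in replicating and 1648 in non-cycling cells, a ratio of mitotic to non-cycling cells of 0.447 (0.43 to 0.464). The antiproliferative gene Btg2 was also at least 2-fold lower in mitotic cells, at 16.2 against 35.5 CPM. On the higher side was Cdkn2d (p19), an inhibitor of the Ccnd-dependent kinases, at 34.4 CPM in mitotic and 16.3 in non-cycling cells. In dual-enSERT-2 Cdkn2d stood at 31.4 CPM in mitotic and 15.3 in other gated cells, close to the 34.4 and 17.0 CPM of the same states in dual-enSERT-1.

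Replicating cells carried more RNA of the replication genes, 4 of which chose them, and their low mitotic sum was fixed by the rule. Against non-cycling cells of dual-enSERT-1, 19 of 26 replication genes were at least 2-fold higher, with a median log2 difference of 1.28, where 2.38% of 11075 tested genes were higher and 1.59% were lower. Ung, which removes uracil from DNA, stood at 82.1 CPM in replicating, 18.6 in mitotic and 14.1 in non-cycling cells. Cdc6, which loads the helicase onto origins, followed the same order, at 64.1, 26.4 and 7.32 CPM. The replicating cells also carried more of 9 of 13 tested mitotic regulators and 6 of 12 tested spindle genes by 2-fold or more. Prc1 stood at 8.27 CPM in replicating and 2.82 in non-cycling cells. The mitotic regulator Mybl2 stood at 17.5 CPM in replicating, 28.4 in mitotic and 2.82 in non-cycling cells.

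Outside the cell cycle lists, the 12 genes with the largest differences in each direction between mitotic and non-cycling cells of dual-enSERT-1 were taken. The higher ones included 3 histone genes, H1f5, H2ac24 and H2ac15. H1f5, a linker histone gene, stood at 1183 CPM in mitotic, 101 in replicating and 24.8 in non-cycling cells. Pcdh15, a protocadherin known from the hair cells of the inner ear, stood at 180 CPM in mitotic, 93.4 in replicating and 4.51 in non-cycling cells, a ratio of mitotic to non-cycling cells of 39.8. Among the 12 highest was also Hoxa13, the distal Hox gene. The lower ones included Igfbp5, a secreted binding protein of insulin-like growth factors, at 15.6 CPM in mitotic and 175 in non-cycling cells, and the secreted factor Ndnf, at 10.8 and 85.1 CPM. With them were the collagen genes Col8a1, at 3.77 and 43.9 CPM, and Col9a2, a cartilage collagen, at 7.41 and 50.7 CPM. In dual-enSERT-2 Igfbp5 was at 3.05 CPM in mitotic and 2.67 in other gated cells, so this RNA was scarce there.

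Of 124 genes in 14 lists of limb patterning, signalling and differentiation, 106 were tested between mitotic and non-cycling cells of dual-enSERT-1. Of these, 29 were at least 2-fold higher and 22 at least 2-fold lower in mitotic cells, beside 5.31% and 5.63% of all 11020 tested genes. The same shares over all genes stand beside the counts of each list below.

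**Figure D3:**
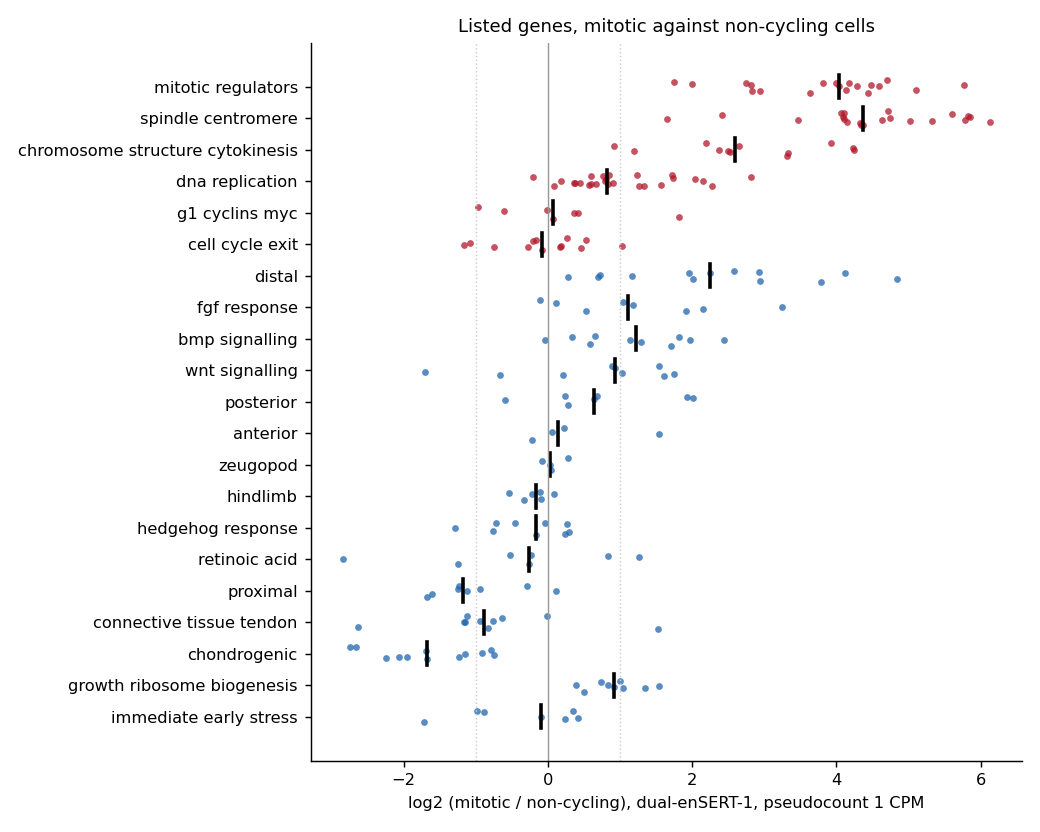
Log2 ratio of mitotic to non-cycling cells of dual-enSERT-1 with a pseudocount of 1 CPM, 1 point per tested gene, by list. Black bars are list medians and dotted lines mark 2-fold, and the distal genes lie mostly above the upper line and the chondrogenic genes mostly below the lower one.

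Most distal genes were higher in mitotic than in non-cycling cells of dual-enSERT-1. Of 13 distal genes, 10 were at least 2-fold higher and 0 lower, with a median log2 difference of 2.25. Hoxa13 stood at 92.3 CPM in mitotic, 48.3 in replicating, 15.4 in lowest-10% and 2.25 in non-cycling cells, a ratio of mitotic to non-cycling cells of 41.0 (16.0 to 150). Hoxd13 stood at 90.3, 40.9, 11.3 and 5.63 CPM in the same order. Replicating cells, which by rule held little mitotic RNA, thus lay between mitotic and lowest-10% cells for both genes. The size depended on how the non-cycling cells were called, since the log2 difference of Hoxa13 was 4.84 here, 2.84 at 5000 UMIs per cell and 2.82 with states called on one portion of the UMIs and levels measured on the rest. Msx1, a homeobox gene of undifferentiated distal mesenchyme, stood at 209 CPM in mitotic and 26.5 in non-cycling cells. Lhx2, a LIM homeobox gene needed for the response to the ridge, stood at 93.2 and 11.3 CPM. Tfap2c, a transcription factor of the distal bud, was at 16.4 CPM in mitotic cells and had 0 UMIs in non-cycling cells, so it was at least 9.69-fold higher. The LIM homeobox gene Lhx9 did not pass 2-fold, at 227 CPM in mitotic and 139 in non-cycling cells.

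Targets and members of the FGF, BMP and WNT pathways stood mostly on the same side as the distal genes. Of 8 FGF response genes, 5 were at least 2-fold higher in mitotic cells and 0 lower. Etv4, an ETS factor induced by FGF, stood at 35.4 CPM in mitotic and 2.82 in non-cycling cells, and its relative Etv5 at 45.2 and 11.3 CPM. The feedback inhibitor Spry4 stood at 18.5 and 3.38 CPM. Of 10 tested BMP genes, 6 were at least 2-fold higher, among them the ligand Bmp4, at 122 and 36.6 CPM, and the BMP antagonist Grem1, at 44.1 and 7.32 CPM. Of 9 tested WNT genes, 4 were at least 2-fold higher, among them the target Axin2, at 40.4 and 11.3 CPM, and the transcription factor Lef1, at 120 and 40.6 CPM. Sfrp2, a secreted WNT modulator, was the 1 on the lower side, at 43.7 CPM in mitotic and 144 in non-cycling cells.

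Proximal and differentiation genes were low in mitotic and high in non-cycling cells of dual-enSERT-1. Of 8 proximal genes, 5 were at least 2-fold lower and 0 higher. Meis1 stood at 59.0 CPM in mitotic, 79.5 in replicating and 129 in non-cycling cells, and Meis2 at 139, 232 and 446 CPM. Shox2, needed for the proximal skeleton, stood at 301, 432 and 715 CPM. Of 12 tested chondrogenic genes, 9 were at least 2-fold lower in mitotic cells, with a median log2 difference of -1.68. Sox9, the regulator of cartilage fate, stood at 211 CPM in mitotic, 368 in replicating and 675 in non-cycling cells, a ratio of mitotic to non-cycling cells of 0.313 (0.296 to 0.332). Its partner Sox6 stood at 109, 184 and 519 CPM, and Col2a1, the main cartilage collagen, at 79.6, 160 and 312 CPM. Replicating cells thus lay between the other states for each of these genes.

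The same side held connective tissue and retinoic acid genes. Of 10 tested connective tissue and tendon genes, 4 were at least 2-fold lower in mitotic cells, Osr2, Scx, Tcf7l2 and Col1a1, and 1 higher, Mkx. Osr2, a transcription factor of joint and connective tissue, stood at 37.5 CPM in mitotic and 237 in non-cycling cells, and the tendon regulator Scx at 82.2 and 181 CPM. Mkx, another tendon regulator, stood at 18.1 and 5.63 CPM. Of 7 retinoic acid genes, 2 were lower and 1 higher. Aldh1a2, the enzyme that makes retinoic acid, stood at 10.8 CPM in mitotic and 83.9 in non-cycling cells, and its receptor target Rarb at 13.3 and 32.7 CPM. The binding protein Crabp1 was higher, at 229 and 95.2 CPM.

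For other axes of the limb the lists were short. None of 4 zeugopod genes or 6 hindlimb genes passed 2-fold, beside 5.31% of all tested genes on the higher side and 5.63% on the lower side. Hoxa11 stood at 72.7 CPM in mitotic and 76.6 in non-cycling cells, and the hindlimb gene Pitx1 at 375 and 352 CPM. Of 9 genes of the hedgehog pathway, 1 passed 2-fold, the co-receptor Boc, at 58.8 CPM in mitotic and 145 in non-cycling cells. Ptch1, the receptor and target of Shh, stood at 152 and 126 CPM and the target Gli1 at 19.5 and 16.3 CPM. Of 7 tested posterior genes, 2 were at least 2-fold higher, Tbx2, a T-box repressor, at 37.1 and 9.01 CPM, and Hoxd12, which is also on the distal list. Hand2, an activator of Shh, stood at 197 and 126 CPM. Shh itself was at 8.83 CPM in mitotic cells and had 0 UMIs in non-cycling cells, so it was at least 5.23-fold higher. Of 4 tested anterior genes, 1 passed 2-fold on the higher side, and Pax9 stood at 10.7 CPM in mitotic and 9.01 in non-cycling cells. The 1 tested dorsoventral gene did not pass.

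Against non-cycling cells of dual-enSERT-1 the reporters stood on the side of the distal genes. eGFP, driven by the 404G>A allele, was at 140 CPM in mitotic, 138 in replicating and 36.1 in non-cycling cells of dual-enSERT-1, and mCherry, driven by the reference ZRS, was at 52.9, 49.6 and 6.76 CPM. Mitotic and replicating cells were thus close. In dual-enSERT-2 eGFP was at 28.4 CPM in mitotic and 27.0 in other gated cells, and mCherry at 22.1 and 21.6 CPM. Against other gated cells the log2 differences of both reporters were -0.17 to -0.13 in dual-enSERT-1 and 0.03 to 0.07 in dual-enSERT-2. The distal list had a median of 0.30 in that comparison of dual-enSERT-1, so the reporters were not on its side there. Of 9 growth and ribosome biogenesis genes, 4 were at least 2-fold higher in mitotic cells of dual-enSERT-1, among them the polyamine enzyme gene Srm, at 87.7 and 33.8 CPM. Of 7 tested immediate early genes, 1 passed 2-fold, Jun, at 76.6 CPM in mitotic and 255 in non-cycling cells.

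The lowest 10% allowed the same contrast in both libraries. In dual-enSERT-1, 21 of 107 patterning genes were at least 2-fold higher and 18 lower in mitotic than in lowest-10% cells, where 3.68% of 10983 genes were higher and 3.09% lower. In dual-enSERT-2, 0 of 100 were higher and 0 lower, with log2 differences between -0.90 and 0.88, where 1.3% of 10411 genes were higher and 0.202% lower. Hoxd13 stood at 90.3 CPM in mitotic and 11.3 in lowest-10% cells of dual-enSERT-1, against 24.9 and 18.8 CPM in dual-enSERT-2. Sox9 stood at 211 and 586 CPM in dual-enSERT-1 and at 93.0 and 103 CPM in dual-enSERT-2. For Meis2 the values were 139 and 396 CPM in dual-enSERT-1, and they were 177 and 270 CPM in dual-enSERT-2. No cell in the lowest 10% of dual-enSERT-2 met the non-cycling rule, so the contrast was not of the same kind in both libraries, and the difference between them was not tested.

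**Figure D4:**
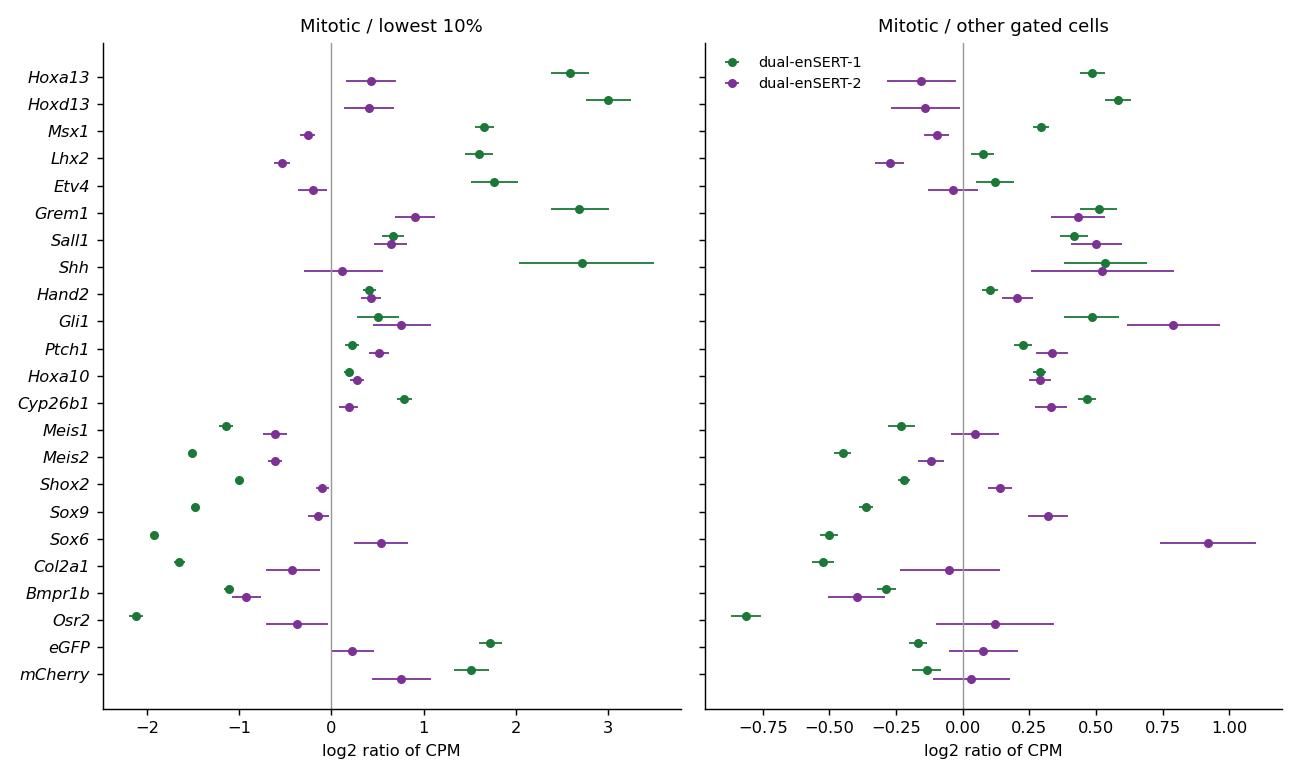
Log2 ratio of CPM, mitotic to lowest-10% cells (left) and mitotic to other gated cells (right), for named patterning genes and the reporters in both libraries, with exact 95% counting intervals as bars. In dual-enSERT-1 Hoxd13 and Osr2 lie at opposite ends of the left panel, and in dual-enSERT-2 every gene shown there lies within 1 unit of 0.

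A replicated test was possible between mitotic and all other gated cells. UMIs were summed per state and library, and the 4 sums were fitted with edgeR's quasi-likelihood test with library as a block. With 1 residual degree of freedom, its adjusted p-values (Benjamini-Hochberg over 10598 genes) rest on the agreement of 2 libraries and on the spread shared over genes. At an adjusted p under 0.05, 252 genes (2.38%) rose and 181 genes (1.71%) fell in mitotic cells. These counts include all 6 mitotic genes of the rule, whose rise was fixed by the choice of the cells. They also include 3 replication genes of the rule, Mcm5, Mcm6 and Pcna, which fell. Outside the cell cycle lists the counts were 207 and 161 genes. Since states and levels come from the same UMIs, both were also taken from separate portions of each cell's UMIs, and 233 of the 252 and 164 of the 181 genes were called again. Without the library block edgeR called 0 genes, with 422 at an unadjusted p under 0.05 (2572 with the block), and DESeq2 with the block called 219 of the 252 and 141 of the 181. Without the Scrublet doublets the shared calls were 123 and 65.

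A naming rule picked, outside the cell cycle lists, the 12 genes that rose and the 10 that fell with the largest differences held in both libraries. The cells were chosen by their mitotic RNA, so a rise of further genes of mitosis, which the lists had missed, follows from that choice. Taking states and levels from separate UMIs does not remove it. The adjusted p-values of such genes are no separate support for the states. Pif1, a DNA helicase, led those that rose, at 24.7 CPM in mitotic and 0.936 in other gated cells of dual-enSERT-1, and at 30.8 and 2.09 CPM in dual-enSERT-2 (edgeR log2 difference 4.35, adjusted p = 0.00297). Fam83d, a protein that carries casein kinase to the spindle, stood at 27.0 and 2.43 CPM and at 25 and 2.34 CPM (edgeR adjusted p = 0.000866). Kpna2, an importin that regulates spindle assembly, was at 63.5 and 8.83 CPM in dual-enSERT-1 and at 56.5 and 10.8 CPM in dual-enSERT-2 (edgeR adjusted p = 0.00297). The 2 libraries gave similar levels of Fam83d and Kpna2, while Pif1 in other gated cells was higher in dual-enSERT-2 than in dual-enSERT-1. Incenp, the scaffold of the chromosomal passenger complex, was at 180 and 33.5 CPM in dual-enSERT-1 and at 155 and 48.1 CPM in dual-enSERT-2 (edgeR adjusted p = 0.00792). Arl6ip1, which shapes the endoplasmic reticulum, was at 559 and 114 CPM and at 518 and 148 CPM (edgeR adjusted p = 0.0049). The genes picked on this side also included Cenpl of the centromere, the kinesins Kif18a, Kif14 and Kifc1, and Depdc1a and Depdc1b. Pcdh15 rose as well, at 180 and 87.0 CPM in dual-enSERT-1 and at 88.3 and 48.7 CPM in dual-enSERT-2 (edgeR adjusted p = 0.00665).

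Genes that fell in mitotic cells changed less. Fbxl20, an adaptor of a ubiquitin ligase, stood at 30.7 CPM in mitotic and 68.2 in other gated cells of dual-enSERT-1, and at 21.2 and 48.9 CPM in dual-enSERT-2 (edgeR adjusted p = 0.00386). Msh6, a DNA mismatch repair gene, stood at 46.5 and 73.7 CPM in dual-enSERT-1 and at 47.9 and 82.3 CPM in dual-enSERT-2 (edgeR adjusted p = 0.00843). Rnf168, a ubiquitin ligase of the response to DNA breaks, stood at 43.8 and 73.8 CPM and at 43.0 and 74.3 CPM (edgeR adjusted p = 0.00752). The levels of Msh6 and Rnf168 were close in the 2 libraries, while Fbxl20 was lower in both states of dual-enSERT-2 than of dual-enSERT-1. The rule also picked Gm37194, Gpr180, Slfn9, Zmynd19, Zfp808, Snhg4 and 2810001G20Rik. Replication genes lay on this side, with 22 of 26 below 0 in dual-enSERT-1, and all 26 of 26 below it in dual-enSERT-2. Ccne2, the cyclin of S phase entry, stood at 23.6 CPM in mitotic and 51.1 in other gated cells of dual-enSERT-1 and at 21.8 and 85.0 CPM in dual-enSERT-2.

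Among 106 patterning genes in this test, 6 rose and 1 fell, beside 2.38% and 1.71% of all genes tested. Those that rose were Sall1, Hoxa10, Gli1, Cyp26b1, Grem1 and Id2, and the 1 that fell was Bmpr1b. Grem1 stood at 44.1 CPM in mitotic and 31.0 in other gated cells of dual-enSERT-1 and at 54.4 and 40.3 CPM in dual-enSERT-2 (edgeR log2 difference 0.46, adjusted p = 0.0249). Gli1 stood at 19.5 and 14 CPM in dual-enSERT-1 and at 22.8 and 13.2 CPM in dual-enSERT-2 (edgeR log2 difference 0.62, adjusted p = 0.0414). Sall1, a zinc finger gene of the distal bud, stood at 74.3 and 55.6 CPM and at 64.2 and 45.4 CPM (edgeR log2 difference 0.45, adjusted p = 0.0253). The changes were under 2-fold, and each of the 7 calls was lost at 5000 UMIs per cell or without the Scrublet doublets. Cyp26b1, which degrades retinoic acid, stood at 172 and 124 CPM in dual-enSERT-1 and at 149 and 119 CPM in dual-enSERT-2 (edgeR adjusted p = 0.035). Bmpr1b, a BMP receptor of cartilage condensations, stood at 118 and 144 CPM and at 32.0 and 42.2 CPM (edgeR adjusted p = 0.0466).

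The distal genes that led the contrast with non-cycling cells did not pass this test. Hoxa13 stood at 92.3 CPM in mitotic and 65.9 in other gated cells of dual-enSERT-1, and at 24.8 and 27.7 CPM in dual-enSERT-2 (edgeR adjusted p = 0.503). Sox9 stood at 211 and 272 CPM in dual-enSERT-1 and at 93.0 and 74.5 CPM in dual-enSERT-2. Over the distal list, 12 of 13 genes were above 0 in dual-enSERT-1 and 5 of 13 in dual-enSERT-2, with median log2 differences of 0.30 and -0.10. The chondrogenic list had medians of -0.30 and 0.15 and the proximal list -0.20 and 0.03, so the sign differed between the libraries in all 3 lists. The BMP list had medians of 0.26 and 0.18, against -0.01 and 0.01 over all genes. This was not particular to BMP, since the posterior list had medians of 0.20 and 0.12 and the hindlimb list 0.14 and 0.29. The FGF response list (0.15 and -0.03) and the WNT list (-0.08 and 0.06) differed in sign.

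Cells were also sorted by position, on counts thinned to 5000 UMIs per cell. A cell was called distal with a UMI of Hoxa13 or Hoxd13, proximal with a UMI of Meis1 or Meis2, and chondrogenic with UMIs of at least 2 of Sox9, Sox5, Sox6, Col2a1 and Col9a1. A cell could carry several calls. In dual-enSERT-1, 38.0% of mitotic cells were distal (36.8% to 39.2%), 19.5% of replicating, 7.51% of lowest-10% and 3.68% of non-cycling cells (7 of 190, 1.49% to 7.44%). The interval of the last share includes the 2.39% of 251 red blood cell barcodes that gave the same call on equally thinned counts (median before thinning 8971 UMIs in non-cycling cells and 19376 in red blood cell barcodes), so it was not told apart from that level. Chondrogenic cells were 49.1% of mitotic and 81.1% of non-cycling cells (154 of 190, 74.7% to 86.4%), where red blood cell barcodes gave 1.20%. Proximal cells were 27.8% of mitotic and 52.1% of non-cycling cells (44.8% to 59.4%), where red blood cell barcodes gave 0.398%. Other gated cells of dual-enSERT-1 were 27.6% distal, 31.5% proximal and 52.3% chondrogenic. With states called at 5000 UMIs, the non-cycling cells were 6.53% distal and 73.7% chondrogenic, and the mitotic cells 37.9% and 48.2%. In dual-enSERT-2, 14.5% of mitotic (13.2% to 16.0%), 16.7% of other gated (14.6% to 19.1%) and 11.2% of lowest-10% cells were distal, above the 0.564% of 1418 red blood cell barcodes, and the chondrogenic shares were 28.4%, 20.5% and 25.8%.

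**Figure D5:**
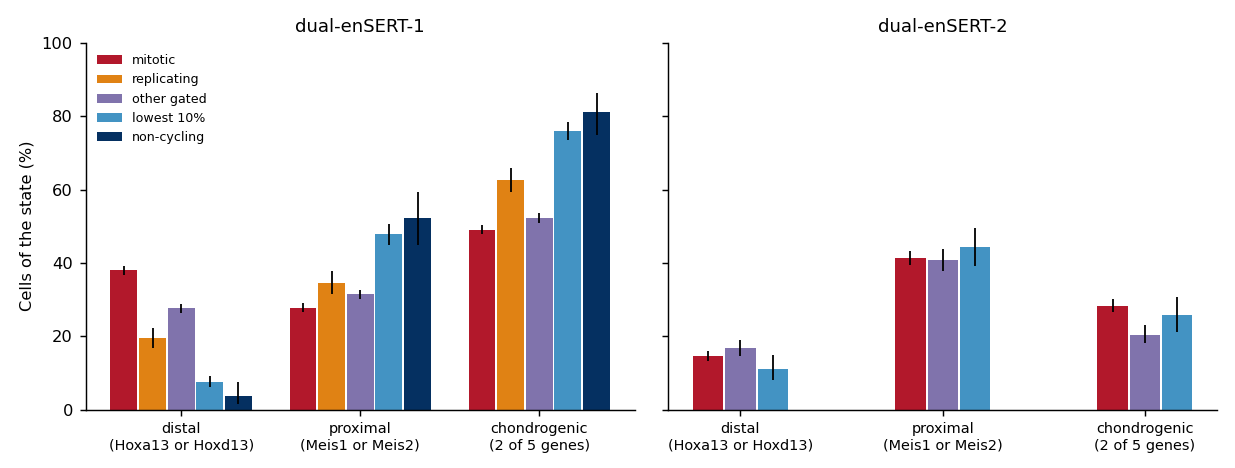
Percent of cells of each state called distal, proximal and chondrogenic in dual-enSERT-1 (left) and dual-enSERT-2 (right), with exact 95% binomial intervals as bars. In dual-enSERT-1 the distal share is highest in mitotic cells and the chondrogenic share highest in non-cycling cells, while the states of dual-enSERT-2 lie closer together.

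Read the other way, the mitotic share was 60.2% among distal cells (58.7% to 61.7%) and 48.5% among the rest (47.4% to 49.6%) in dual-enSERT-1. In dual-enSERT-2 it was 66.2% among distal cells (62.0% to 70.1%) and 69.8% among the rest (68.2% to 71.5%), intervals that overlap. With states called at 5000 UMIs the order in dual-enSERT-1 was the same, at 63.1% and 51.0%. In dual-enSERT-2 the shares were 67.5% among distal cells (63.3% to 71.4%) and 73.7% among the rest (72.1% to 75.3%), opposite in order to dual-enSERT-1. These intervals do not overlap, but they cover only counting error within 1 library, and no difference between distal and other cells was tested. Among chondrogenic cells of dual-enSERT-1 the mitotic share was 50.8% (49.5% to 52.1%), against 54.0% among the rest, an order that turned to 57.4% against 56.2% in cells with at least 10000 UMIs. Among chondrogenic cells of dual-enSERT-2 it was 75.8%, against 67.0% among the rest. Chondrogenic cells were thus common among mitotic cells of dual-enSERT-1 as well as among its non-cycling cells, at 3081 of 6277 and 154 of 190. They made up 50.6% of all gated cells of that library, close to their 49.1% among mitotic cells.

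Markers of other cell types were summed in each state. Ectodermal markers came to 16.3 CPM in mitotic and 37.2 in non-cycling cells of dual-enSERT-1, with 7 of 7 markers detected in both, and Krt18, a keratin, at 10.9 and 30.4 CPM. Markers of neural crest, glia and neurons came to 20.2 CPM in mitotic and 38.9 in non-cycling cells, led by Stmn2 at 9.0 and 27.6 CPM. Erythroid markers came to 270 and 333 CPM in the same states, and to 2271 CPM in mitotic and 2483 in other gated cells of dual-enSERT-2. Muscle markers came to 3.75 and 1.13 CPM, endothelial markers to 4.18 and 2.25 CPM and macrophage markers to 3.38 and 2.25 CPM in mitotic and non-cycling cells of dual-enSERT-1, with Myog at 0 in non-cycling cells. Pericyte markers came to 61.6 and 78.9 CPM. The part of these cells or of free RNA in the contrast was not tested. Of the limb mesenchyme genes that the gate did not use, Pdgfra stood at 164 CPM in mitotic and 277 in non-cycling cells, Twist1 at 365 and 152 CPM and Prrx2 at 274 and 91.3 CPM.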

How the data were processed

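Dissociated hindlimb cells were captured with 10x 3' v3.1 chemistry, about 10000 cells loaded and about 50000 reads per cell in each of 2 libraries, per the labels' protocols. The deposited matrices hold raw UMI counts per gene and barcode. Cell Ranger 3.1.0, Seurat 4 and the mm39 build are named in the submitters' processing notes, while the file headers name cellranger 7.0.1. Whether intronic reads were counted is not given in the sources used here.

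Cells were gated and called as the report describes, with Python 3.11.15, NumPy 2.4.6, pandas 2.3.3, SciPy 1.17.1 and Scanpy 1.11.5 (Scrublet, expected rate 8%). UMIs were summed per library and state, scaled to CPM, and compared as log2(CPM + 1) among genes averaging at least 5 CPM. Mitotic and other gated cells were tested with edgeR 4.0.16 in R 4.3.3 (quasi-likelihood, TMM, library block, checked on simulated data) and with DESeq2 1.42.0 as an alternative. This test replaced the one first planned against non-cycling cells, which could not be fitted with 0 such cells in dual-enSERT-2, as the closing section says. Genes outside the cell cycle lists were named when called at an adjusted p under 0.05, at 20 CPM or more in either state and in the same direction in both libraries, up to 12 a direction, ranked by the smaller log2 difference, which had to reach 0.58. A gene picked by this ranking is not reported here. Listed genes were named by the same ranking, with a few set by name, such as Hoxa13, Sox9 and Shh. Against non-cycling cells the ranking used dual-enSERT-1 alone. Some further listed genes were chosen after their values were seen. Rule genes and cell cycle lists stayed in the edgeR fit and its counts, and are described without p-values. Levels are not scaled by gene length and are compared only between states. Promoters came from RefSeq (GRCm38.p6), a build other than that of the counts, and were matched by symbol. Members and lists were chosen with earlier results of these data known. Nothing in the labels speaks of separate preparations within a library, so p-values rest on the spread between 2 libraries. Alternatives covered thresholds, depth, doublets, filters and normalization.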

Additional observations from a re-analysis of the deposited data

Results flagged for a closer look

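For 3 patterning genes the difference between mitotic and other gated cells had opposite signs in the libraries, on the log2(CPM + 1) scale. Hoxa13 differed by 0.48 in dual-enSERT-1 and by -0.15 in dual-enSERT-2. Hoxd13 differed by 0.58 in dual-enSERT-1 and by -0.14 in dual-enSERT-2. Sox9 differed by -0.36 in dual-enSERT-1 and by 0.32 in dual-enSERT-2. The difference between the libraries was not tested, since each library is 1 sample, and genotype, embryo and preparation cannot be told apart.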

How the results depend on the processing

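The test of mitotic against other gated cells called 252 genes higher and 181 lower. The counts were 0 and 0 without the library block, 413 and 408 with the mitotic limit at 20 per 10000, 470 and 427 in cells of at least 10000 UMIs, and 123 and 65 without Scrublet doublets. They were 735 and 603 within distal cells and 462 and 401 without chondrogenic cells, and at 5000 UMIs per cell 62 genes were lower. No gene was called in opposite directions in these settings. The other alternatives kept both counts within 1.5 times. Of 585 genes 2-fold higher and 620 lower in mitotic than in non-cycling cells, the counts were 1048 and 1130 with non-cycling cells holding no UMI of the 10 genes, 350 and 250 among genes of at least 20 CPM, and for lower genes 399 at 5000 UMIs and 326 with a pseudocount of 5 CPM. For replicating against non-cycling cells, 264 higher and 176 lower became 723 and 618 with no UMI of the 10 genes and 404 and 390 at 10000 UMIs or more. The mitotic share of dual-enSERT-1, 52.4%, was 33.5% at a limit of 20, 55.0% at 5000 UMIs, 50.3% without doublets and 56.8% at 10000 UMIs or more, and that of dual-enSERT-2, 69.3%, was 42.8% at 20 and 72.8% at 5000 UMIs. The non-cycling share, 1.59%, was 0.376% with no UMI of the 10 genes, 4.73% at 5000 UMIs and 0.648% at 10000 UMIs or more. The cause of these shifts was not tested.

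Matn4 and Cnmd, lower in mitotic than in non-cycling cells, turned to log2 differences of 0.52 and 0.45 without chondrogenic cells. Only 36 non-cycling cells of dual-enSERT-1 were left in that setting. Matn4 stood at 3.45 CPM over all mitotic cells of that library, so the turn of sign rests on few UMIs and on the pseudocount. Of 100 named or listed genes in the comparison with non-cycling cells, over all alternatives, 651 values stayed within their spread, 247 moved and 2 turned sign. The settings differed widely. Without chondrogenic cells only 46 of the 100 stayed, 52 moved and 2 turned sign. At 5000 UMIs per cell 43 moved, as did 43 with separate portions of UMIs, and 38 moved among cells that were not distal. Of 43 genes in the comparison with other gated cells, over the alternatives with a test, 562 values kept their call, 68 lost it, 7 gained it and 0 turned sign. The distal-cell mitotic share of dual-enSERT-1 (60.2%, against 48.5% in other cells) was 38.0% against 31.3% at a limit of 20, 63.1% against 51.0% at 5000 UMIs and 58.3% against 46.5% without doublets, and the share in other cells was 54.4% at 10000 UMIs or more. In dual-enSERT-2 the distal-cell share, 66.2%, was 39.5% at a limit of 20, and that of other cells, 69.8%, was 43.4% at 20 and 73.7% at 5000 UMIs. The chondrogenic share of non-cycling cells, 81.1%, was 86.7% with no UMI of the 10 genes and 73.7% at 5000 UMIs. The library block pairs the 2 states of each library, and no samples could be paired between genotypes, which have 1 library each. Leaving out either library left no residual degree of freedom, so only folds of the library kept were computed. The tests planned against non-cycling cells could not be fitted with 0 such cells in dual-enSERT-2, and folds within distal cells against non-cycling cells were not given for 7 cells.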
